A study of Mus musculus with 16 samples.

Results

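The thin filament of skeletal muscle carries troponin and tropomyosin, and 9 of the genes that encode these proteins are described here in the gastrocnemius, a calf muscle made mostly of fast fibres in the mouse. They are Tnnc1, Tnni1 and Tnnt1 for the troponin of slow fibres, Tnnc2, Tnni2 and Tnnt3 for the troponin of fast fibres, and the tropomyosin genes Tpm1, Tpm2 and Tpm3. The members were chosen by name, all 9 were found among the 23440 genes of the deposited table, and all 9 passed the filter on low values that left 10171 genes for testing. RNA was taken from male C57Bl6/J mice aged 20 weeks, with 4 mice in each of 4 groups. The groups were wild type (WT) untrained, WT trained, Il13-/- untrained and Il13-/- trained, where the trained mice ran on a treadmill each day for 5 weeks and the knockout (KO) mice lack interleukin-13, a type 2 cytokine. The series compared the muscle transcripts of trained and untrained mice with and without that cytokine.

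Troponin is the calcium switch of striated muscle. Its subunit C binds calcium, subunit I holds the myosin sites on actin blocked at rest, and subunit T anchors the complex to tropomyosin, a coiled coil that lies along actin and moves aside when calcium is bound. Slow and fast fibres use different genes for each troponin subunit, whereas the tropomyosins mix: Tpm1 gives the alpha form that predominates in fast fibres, Tpm3 the alpha form of slow fibres, and Tpm2 the beta form found in both.

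The 4 slow genes are shown first by the bases that precede their start sites, because their transcripts moved together over the libraries. RefSeq promoter windows of build GRCm38.p6 were given for 7 of the 9 genes; Tnni2 and Tnnt3 had no entry. Capitals mark matches on either strand to the E-box CANNTG, the MCAT motif CATTCC and the CACC box CCACCC, which are known from muscle promoters. Each run holds the 250 bases before a start site, 5′ to 3′ on the gene's own strand.
Tnnc1, chr14:31208062-31208311, plus strand: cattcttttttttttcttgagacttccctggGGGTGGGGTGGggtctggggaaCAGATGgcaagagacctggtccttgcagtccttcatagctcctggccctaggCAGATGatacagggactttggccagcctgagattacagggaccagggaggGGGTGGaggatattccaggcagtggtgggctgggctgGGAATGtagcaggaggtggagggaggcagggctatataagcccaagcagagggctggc
Tnni1, chr1:135799171-135799420, plus strand: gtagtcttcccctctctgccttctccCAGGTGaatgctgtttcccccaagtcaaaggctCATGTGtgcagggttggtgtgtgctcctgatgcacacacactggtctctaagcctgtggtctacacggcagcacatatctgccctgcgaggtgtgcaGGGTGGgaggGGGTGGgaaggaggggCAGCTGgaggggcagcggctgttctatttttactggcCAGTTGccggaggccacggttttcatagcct
Tnnt1, chr7:4515976-4516225, minus strand: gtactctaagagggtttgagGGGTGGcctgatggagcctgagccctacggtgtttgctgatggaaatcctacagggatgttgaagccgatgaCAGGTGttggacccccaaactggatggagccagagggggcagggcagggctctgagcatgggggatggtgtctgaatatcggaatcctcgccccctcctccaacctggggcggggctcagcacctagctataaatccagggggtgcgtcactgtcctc
Tpm3, chr3:90072401-90072650, plus strand: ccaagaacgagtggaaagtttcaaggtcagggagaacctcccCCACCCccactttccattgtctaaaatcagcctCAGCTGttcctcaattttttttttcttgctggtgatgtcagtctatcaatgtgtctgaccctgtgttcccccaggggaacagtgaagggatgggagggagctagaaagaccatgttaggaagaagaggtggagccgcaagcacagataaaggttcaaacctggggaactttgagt

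Shown are the windows that end where the gene begins in the deposited table. RefSeq gave Tnni1 and Tpm3 a second window each, of which that of Tpm3 held 1 E-box and 0 CACC boxes. The 4 windows shown each held at least 1 E-box and at least 1 CACC box. The Tnni1 window held 4 E-boxes and 2 CACC boxes, and the Tnnc1 window held 2 E-boxes, 3 CACC boxes and the only MCAT match of the 4. Of the Tnnc1 CACC boxes, the 2 farthest from the start site overlap by 1 base. Windows of members outside the slow class, not shown, had matches too. That of Tpm2 held 1 E-box and 1 CACC box. That of Tnnc2 held 2 E-boxes and 0 CACC boxes, and that of Tpm1 held 1 E-box, 1 MCAT match and 0 CACC boxes. An E-box with a CACC box was thus not particular to the slow genes. An E-box is common, in 66.22% of the 32851 mouse promoter windows of the same length, a CACC box was in 28.08% and an MCAT match in 12.64%. The MEF2 motif, matched by 2.919% of all windows, had no match in the 4 shown here. These matches describe letters and not factor binding, which the series did not measure.

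Library totals recovered from the table ran from 16307025 to 20074677 reads. The share of that total in the listed genes was 79.9% to 83.3% in WT untrained and 76.0% to 83.5% in WT trained libraries. It was 77.2% to 81.7% in KO untrained and 75.6% to 78.3% in KO trained ones. Among WT trained libraries, number 1 had the share of 83.5% and the others had 76.0% to 78.8%. The part of this share in the small differences of the fast genes was not tested. Markers of skeletal fibres were present in every library, with 7 of 7 tested and a summed level of 45661 to 60241 RPKM (reads scaled to the length of the gene and the total of the library). Il13 itself cannot check the genotype labels in this tissue, since it had 0 reads in all 8 WT libraries and 0 to 2 reads in the KO libraries, 5 reads in all. Each library came from a separate mouse. The KO library numbered 3 was the highest of its group in all 4 slow genes in both the untrained and the trained mice. For training in KO mice, results are given without 1 library at a time, and some other results are also given without both of these libraries. Leaving out both was chosen after seeing the data, and leaving out the trained one lowers the KO trained means of the slow genes by construction. Of the cardiac set, Tnnt2, cardiac troponin T, was at 1.12 to 2.67 RPKM, and Tnni3, Myh6 and Nppa were under the filter.

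The 4 slow genes were scarce and the fast ones among the most abundant transcripts of the muscle. Per length, Tnnt3 ranked 1 or 2 of 23440 genes in every library, Tnni2 ranked 4 throughout, Tnnc2 5 to 7, Tpm1 12 throughout and Tpm2 17 to 24. The median ranks of the slow genes were 938 for Tnnt1, 1174 for Tnnc1, 1704 for Tpm3 and 1997 for Tnni1. All 9 genes together took 4.92% to 6.40% of the reads of a library, and the 4 slow genes 0.00555% to 0.0378%. The slow genes also varied most: the highest library exceeded the lowest 12.9-fold for Tnni1, 12.3-fold for Tnnc1, 8.89-fold for Tnnt1 and 4.26-fold for Tpm3, against 2.02-fold for Tpm2 and 1.29-fold to 1.41-fold for the 4 fast genes. Counting error is small beside this spread. The lowest count of any member, 81 reads of Tnni1 in WT untrained library 2, gave 4.16 RPKM with an exact Poisson 95% interval of 3.31 to 5.17, which covers counting error only.

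In WT mice the training contrast parted the members into slow and fast. All 4 slow genes were higher in each of the 4 trained libraries than in any untrained one, by 1.41 to 2.27 on the log2 scale, and the 4 fast genes were lower in each trained library than in any untrained one, by 0.21 to 0.30, a difference that quantile normalization, which fixes the values of the top ranks, brought to 0 for Tnni2 and Tpm1, -0.01 for Tnnt3 and 0.01 for Tnnc2. Tpm2 overlapped between the groups. In bulk RNA, fewer fibres of a type and less RNA per fibre cannot be told apart for any of these genes. So 8 of 9 members did not overlap, where 6.37% of all tested genes did not (3.76% higher, 2.62% lower). By limma with Benjamini-Hochberg adjustment over all 10171 genes, 1 of 9 members passed an adjusted p of 0.05, Tpm1, beside 0.187% of all genes, and 8 of 9 were at an unadjusted p under 0.05, beside 11.8%. Over the 16 libraries the slow genes correlated with each other at r of 0.98 to 0.996, and the 4 fast genes at 0.90 to 0.97. Counts of members, here and in the other contrasts, are therefore not counts of independent genes. Log2 differences here are on the log2(RPKM + 0.1) scale. The median log2 difference was 0.26 over the 9 members and 0.01 over all tested genes.

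Tnnc1, on chr14:31208312-31211711 of mm10, encodes the slow and cardiac subunit C. It stood at 34.4, 8.31, 30.5 and 10.4 RPKM in the WT untrained libraries numbered 1 to 4, and at 98.6, 79.4, 102.3 and 56.8 in the WT trained ones. The KO untrained libraries had 52.1, 10.8, 102.4 and 35.7 RPKM, and the KO trained ones 32.3, 19.4, 90.3 and 13.5. The lowest WT trained library was above the highest WT untrained one, whereas the KO groups overlapped over nearly their whole range, each with its highest value in library 3. Group means were 20.9 ± 13.5 (SD, n = 4) in untrained and 84.3 ± 20.9 in trained WT mice, and 50.2 ± 38.7 in untrained and 38.9 ± 35.2 in trained KO mice. The WT training difference was 2.23 (SE 0.74) on the log2 scale, with an adjusted p of 0.235 by limma. Its fast counterpart Tnnc2, on chr2:164777162-164779734, lay between 10752 and 11841 RPKM in untrained WT libraries, 9153 and 10367 in trained WT libraries, 9986 and 10835 in untrained KO libraries and 9225 and 9696 in trained KO libraries. Trained libraries lay below untrained ones in both genotypes, by 0.22 (SE 0.05, limma adjusted p = 0.0679) in WT and by 0.12 (adjusted p = 0.317) in KO mice on the log2 scale. In the GENCODE annotation exons of Tnnc2 overlap an exon of Ube2c on the other strand, whereas the deposited table places Ube2c 4260 bases away, at a median of 0.183 RPKM.

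Tnni1, on chr1:135799421-135810989, encodes slow troponin I, the inhibitory subunit. Its levels were 21.0, 4.16, 15.7 and 5.25 RPKM in WT untrained libraries 1 to 4 and 53.8, 41.8, 53.2 and 34.04 in WT trained ones. In KO mice they were 25.5, 5.29, 52.1 and 17.1 RPKM untrained and 14.9, 9.38, 49.5 and 8.05 trained. The pattern is that of Tnnc1 at a lower level, with WT groups apart and KO groups overlapping. Means were 11.5 ± 8.18 (SD, n = 4) and 45.7 ± 9.56 RPKM in untrained and trained WT mice, a log2 difference of 2.27 (SE 0.75, limma adjusted p = 0.237). Tnni2, fast troponin I, on chr7:142442468-142444405, had means of 11804 ± 592 RPKM in untrained and 10114 ± 765 in trained WT mice, and 10825 ± 467 in untrained and 10133 ± 372 in trained KO mice. In WT it was lower after training by 0.22 (SE 0.06, limma adjusted p = 0.103), and its KO groups overlapped.

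Tnnt1, on chr7:4504663-4515975, encodes slow troponin T, the tropomyosin-binding subunit. It was at 45.7, 12.6, 32.1 and 14.2 RPKM in WT untrained libraries 1 to 4, and at 97.6, 80.9, 112.3 and 68.6 in WT trained ones. KO untrained libraries had 63.4, 17.3, 97.6 and 41.4 RPKM and KO trained ones 38.2, 23.4, 106.3 and 19.6. Again the WT groups did not overlap and KO library 3 was the highest of its group in both conditions. The WT training difference was 1.96 (SE 0.62, limma adjusted p = 0.215). Tnnt3, fast troponin T, on chr7:142498836-142516009, was the most abundant member. It ran from 17527 to 19135 RPKM in untrained WT libraries, 14603 to 16798 in trained WT libraries, 16423 to 16906 in untrained KO libraries and 14950.1 to 16175 in trained KO libraries. In neither genotype did trained and untrained libraries overlap, with log2 differences of -0.21 (SE 0.05, limma adjusted p = 0.0679) in WT and -0.08 (adjusted p = 0.499) in KO mice. The region of Tnnt3 overlaps that of the table's Gm14492, at a median of 71.1 RPKM, and how reads shared by them were counted is not given in the sources used here.

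Tpm3, on chr3:90072651-90100902, encodes the slow alpha tropomyosin and, from other start sites and exons, cytoplasmic forms, which the gene row sums. Its levels were 23.0, 12.2, 19.7 and 14.7 RPKM in WT untrained libraries 1 to 4 and 48.3, 44.95, 51.8 and 36.2 in WT trained ones. KO untrained libraries had 35.3, 14.8, 47.8 and 22.1 RPKM and KO trained ones 21.8, 17.8, 50.4 and 16.2. The WT groups did not overlap, and the log2 difference of 1.41 (SE 0.39, limma adjusted p = 0.140) was the smallest of the 4 slow genes and the most precise. It passed the threshold when only the WT groups were fitted (adjusted p = 0.0237) and without both KO libraries numbered 3 (adjusted p = 0.0287).

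Tpm1, on chr9:67022593-67049213, encodes the alpha tropomyosin of fast and cardiac muscle and was the 1 member that passed the test. WT untrained libraries 1 to 4 stood at 6168, 6082, 6784 and 6165 RPKM and WT trained ones at 5336, 5127, 5204 and 4814. KO untrained libraries stood at 5586, 5728, 5640.0 and 5822 RPKM and KO trained ones at 5370.4, 5407, 4844 and 5444. Trained libraries lay below untrained ones in both genotypes, with no overlap. The fall in WT was by 0.30 on the log2 scale (SE 0.05, limma adjusted p = 0.0365), and the KO difference of -0.11 (adjusted p = 0.359) did not pass. The call is close to the threshold: it was lost when 1 of the WT untrained libraries 1, 3 or 4, of the WT trained libraries 2, 3 or 4, or of the KO untrained libraries 1 or 2 was left out, with adjusted p up to 0.147, and when only the WT groups were fitted (adjusted p = 0.0978). It was also lost without a filter on low values (adjusted p = 0.0590) and with the replicate number as a block (adjusted p = 0.0685). Quantile normalization gives Tpm1, at rank 12 in every library, the same value in all libraries. The difference of 0 under that setting was thus fixed in advance and does not test the call. Without 1 library the difference ran from -0.32 to -0.26.

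Tpm2, on chr4:43514712-43523388, encodes beta tropomyosin, which smooth muscle also expresses, and followed neither class closely. It was at 1533, 2197, 1678 and 1995 RPKM in WT untrained libraries 1 to 4, 2617, 2120.3, 2059 and 2048 in WT trained, 1976, 1726, 2429 and 1735 in KO untrained, and 1641, 1297, 1955 and 1945 in KO trained ones. The WT groups overlapped (log2 difference 0.26, SE 0.15, limma adjusted p = 0.516). The highest WT trained library for Tpm2, number 1, stood apart from the other 3 of its group. In each contrast the log2 difference of Tpm2 had the sign of the slow genes, which in KO training all members shared. Over all libraries its r was 0.40 to 0.50 with the slow genes and -0.25 to 0.12 with the fast ones. For deviations from group means, r was 0.17 to 0.31 with the slow genes and -0.25 to 0.44 with the fast ones. Summed smooth muscle markers, 7 of 7 tested, lay between 56.1 and 81.6 RPKM in untrained WT libraries, 56.0 and 87.4 in trained WT libraries, 68.1 and 88.9 in untrained KO libraries and 52.0 and 65.5 in trained KO libraries, and their part in Tpm2 was not tested.

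**Figure D1:**
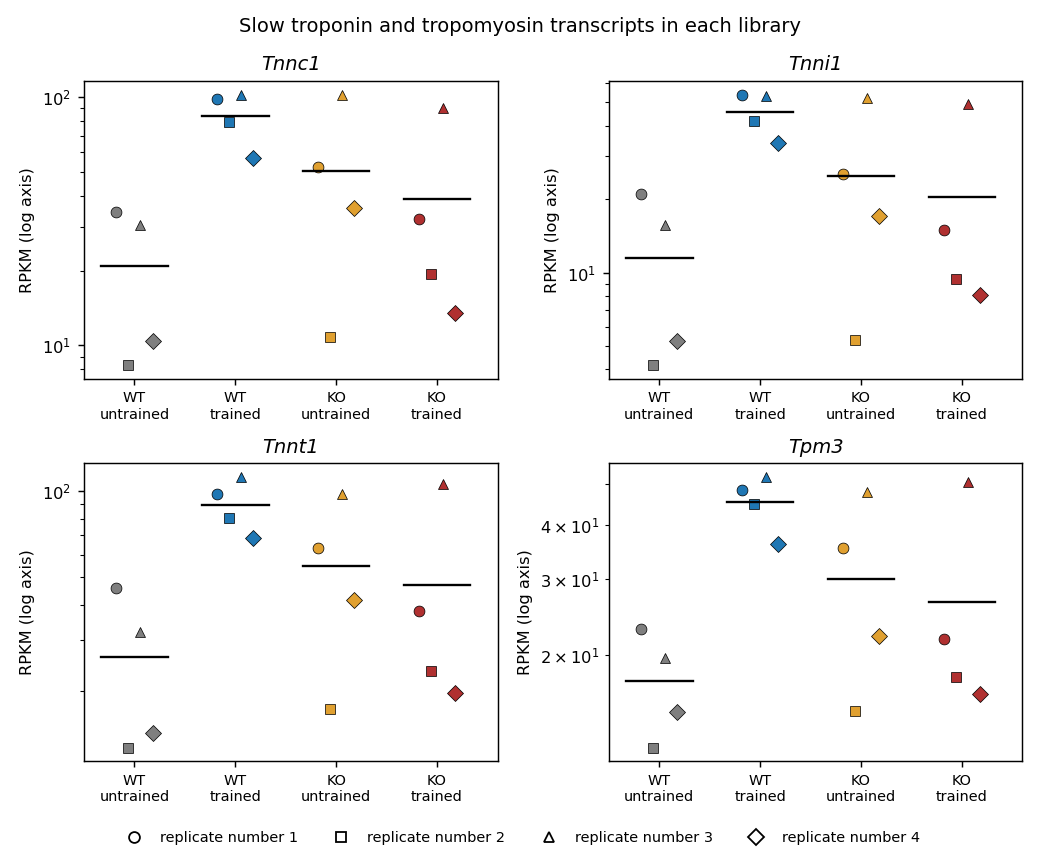
Levels of Tnnc1, Tnni1, Tnnt1 and Tpm3 in RPKM on a log axis, 1 point per library in the 4 groups, with the arithmetic group mean as a line and the replicate number as the symbol. The 4 WT trained libraries lie above all WT untrained ones in each panel, and in both KO groups the triangle of library 3 is the highest point.

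**Figure D2:**
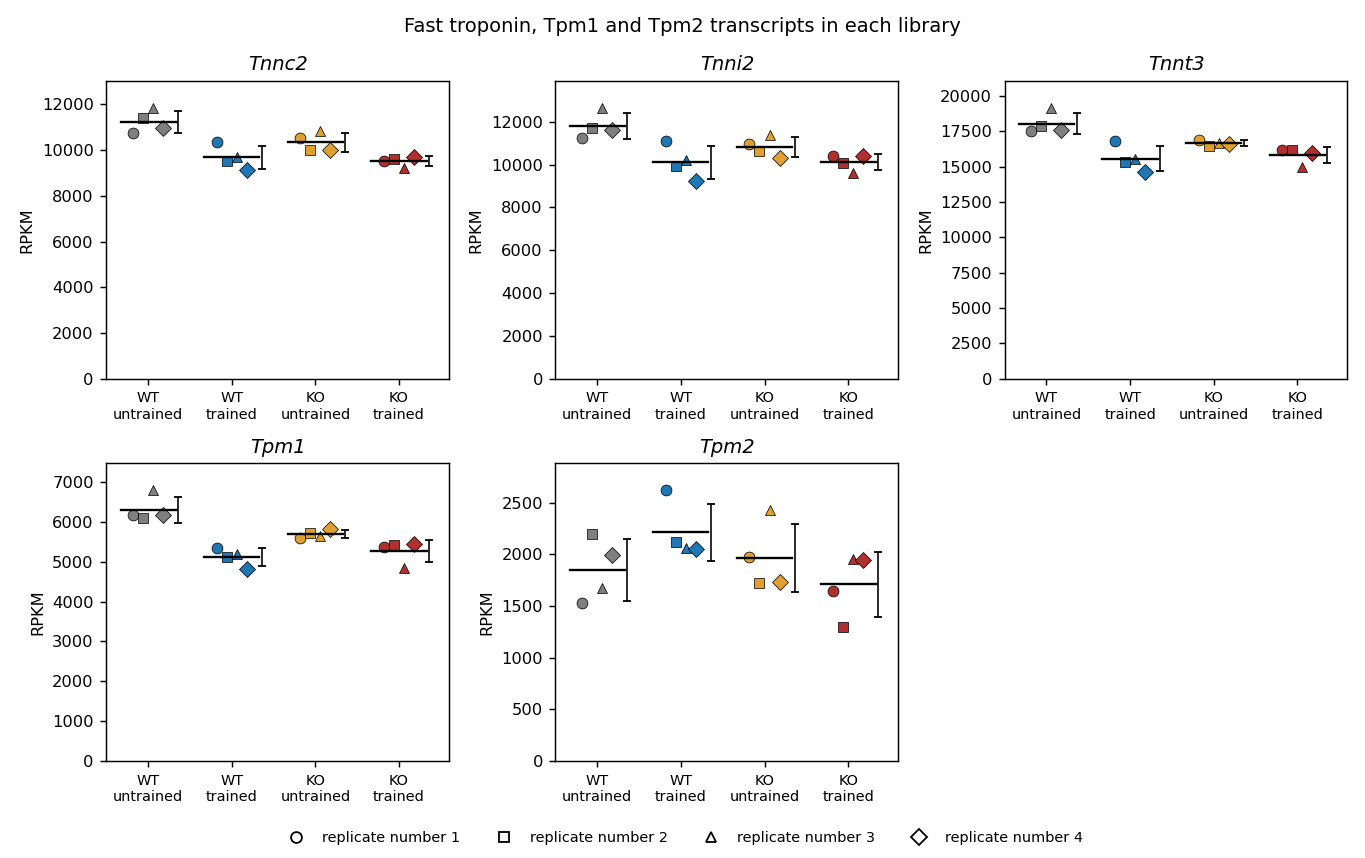
Levels of Tnnc2, Tnni2, Tnnt3, Tpm1 and Tpm2 in RPKM on a linear axis from 0, 1 point per library, with the group mean as a line and the SD (n = 4) as a bar. The first 4 genes are lower in WT trained than in WT untrained libraries without overlap in these RPKM values, which quantile normalization of the top ranks removes, while the Tpm2 groups overlap.

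Set against its fast counterpart within the same library, each slow gene gave a value that does not depend on scaling between libraries. Tnnc1 was 0.186% ± 0.122 (SD, n = 4) of Tnnc2 in WT untrained and 0.866% ± 0.187 in WT trained mice. Tnni1 was 0.0979% ± 0.0712 and 0.449% ± 0.0681 of Tnni2, and Tnnt1 was 0.145% ± 0.0886 and 0.575% ± 0.108 of Tnnt3. Tpm3 was 0.275% ± 0.0749 and 0.882% ± 0.101 of Tpm1. Even in trained WT muscle a slow gene was at most 1.06% of its fast counterpart. Compared on the log2 scale, the ratio was 5.50-fold higher after training for subunit C, 5.70-fold for subunit I, 4.52-fold for subunit T and 3.28-fold for the tropomyosin pair. No WT trained library overlapped an untrained one in any of the 4 ratios, and each two-sided exact permutation p was 0.0286, the smallest that 4 against 4 libraries can give. After Benjamini-Hochberg adjustment over 20 ratio tests the p was 0.124 for each pair. Since Tpm1 and Tpm3 rows sum several isoforms over gene lengths of 3279 and 2731 bases, the tropomyosin ratio is one of whole-gene levels.

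In KO mice the same ratios overlapped between trained and untrained groups. The Tnnc1 to Tnnc2 ratio was 0.494%, 0.108%, 0.945% and 0.357% in KO untrained libraries 1 to 4 and 0.339%, 0.201%, 0.979% and 0.139% in KO trained ones. The spread within each KO group was thus as wide as the gap between the WT groups. Mean ratios were 0.476% ± 0.351 (SD, n = 4) and 0.415% ± 0.385 for this pair, 0.226% ± 0.171 and 0.207% ± 0.207 for Tnni1 to Tnni2, 0.329% ± 0.203 and 0.304% ± 0.276 for Tnnt1 to Tnnt3, and 0.530% ± 0.263 and 0.518% ± 0.351 for Tpm3 to Tpm1. The log2 differences were -0.24, -0.18, -0.24 and -0.09 in that order, with exact permutation p of 0.800 to 0.886. Their sign turned on single libraries: leaving out 1 library moved the subunit C value between -0.82 and 0.22.

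**Figure D3:**
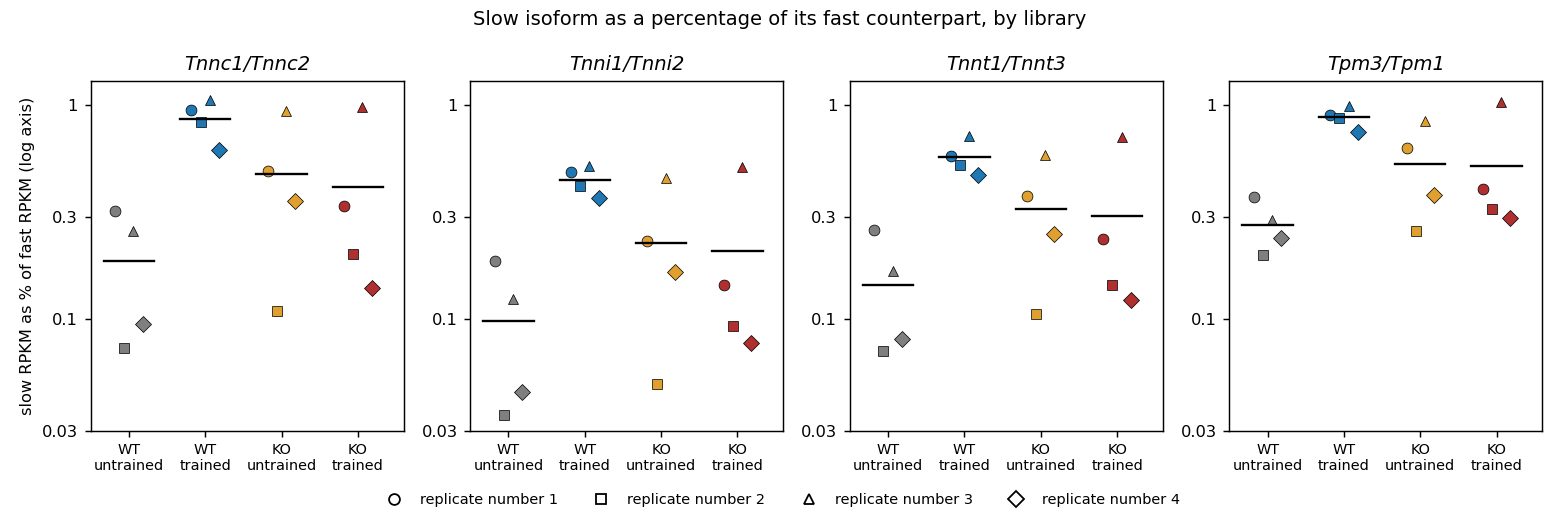
The slow gene as a percentage of its fast counterpart in RPKM, on a log axis, for the pairs Tnnc1/Tnnc2, Tnni1/Tnni2, Tnnt1/Tnnt3 and Tpm3/Tpm1, 1 point per library with the arithmetic group mean as a line. WT trained libraries lie between 0.368% and 1.06% and above every WT untrained library of the same pair; KO libraries span both ranges.

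Over the single genes, all 9 members were lower on average in KO trained than in KO untrained mice and none passed (limma adjusted p from 0.317 to 0.888). No gene of the table passed in that contrast (0% called); at an unadjusted p under 0.05 were 2 of 9 members, Tnnc2 and Tpm1, and 13.7% of all genes. Of all tested genes, 64.9% were below 0 in that contrast. The groups did not overlap for 3 members, Tnnc2, Tnnt3 and Tpm1, all lower in trained mice, where 9.43% of all genes did not overlap and 5.43% were lower without overlap. After quantile normalization these differences were -0.044 for Tnnc2, 0.023 for Tnnt3 and 0 for Tpm1. The median log2 difference was -0.20 over the members and -0.06 over all genes. The slow genes were estimated loosely, with a 95% interval of -1.95 to 1.24 for Tnnc1 and of -1.04 to 0.64 for Tpm3. Differences within those intervals, in either direction, are not excluded by these groups. For the fast genes the intervals were narrower, at -0.22 to 0.03 for Tnni2 and -0.18 to 0.03 for Tnnt3. They were -0.23 to -0.01 for Tnnc2 and -0.23 to -0.0011 for Tpm1, which exclude 0. The intervals are not adjusted for the number of genes tested.

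The difference between the responses, KO minus WT, was negative for the slow genes and Tpm2 and positive for the fast genes, of which quantile normalization gave -0.06 for Tnnc2 and at most 0.03 for the rest. It was -2.59 (SE 1.04) for Tnnc1, -2.55 (SE 1.06) for Tnni1, -2.27 (SE 0.88) for Tnnt1 and -1.61 (SE 0.55) for Tpm3 on the log2 scale. For the fast genes it was 0.10 for Tnnc2, 0.13 for Tnni2, 0.14 for Tnnt3 and 0.18 for Tpm1, and for Tpm2 it was -0.47. None of the 9 passed, with limma adjusted p from 0.526 to 0.732, nor did any other gene (0% called). At an unadjusted p under 0.05 were 6 of 9 members, Tnnc1, Tnni1, Tnnt1, Tpm1, Tpm2 and Tpm3, beside 8.4% of all genes. The slow genes among these 6 ran together over the libraries and are not independent of each other. The 4 ratios differed between the genotypes' responses by -2.70, -2.69, -2.41 and -1.80 for C, I, T and tropomyosin. Permuting the training labels within each genotype gave exact p of 0.0433, 0.0498, 0.0384 and 0.0343 and an adjusted p of 0.124 for each. Such a permutation assumes no response in either genotype, so a WT response alone can lower this p. Without both KO libraries numbered 3 the differences were -2.79, -2.81, -2.59 and -1.93.

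**Figure D4:**
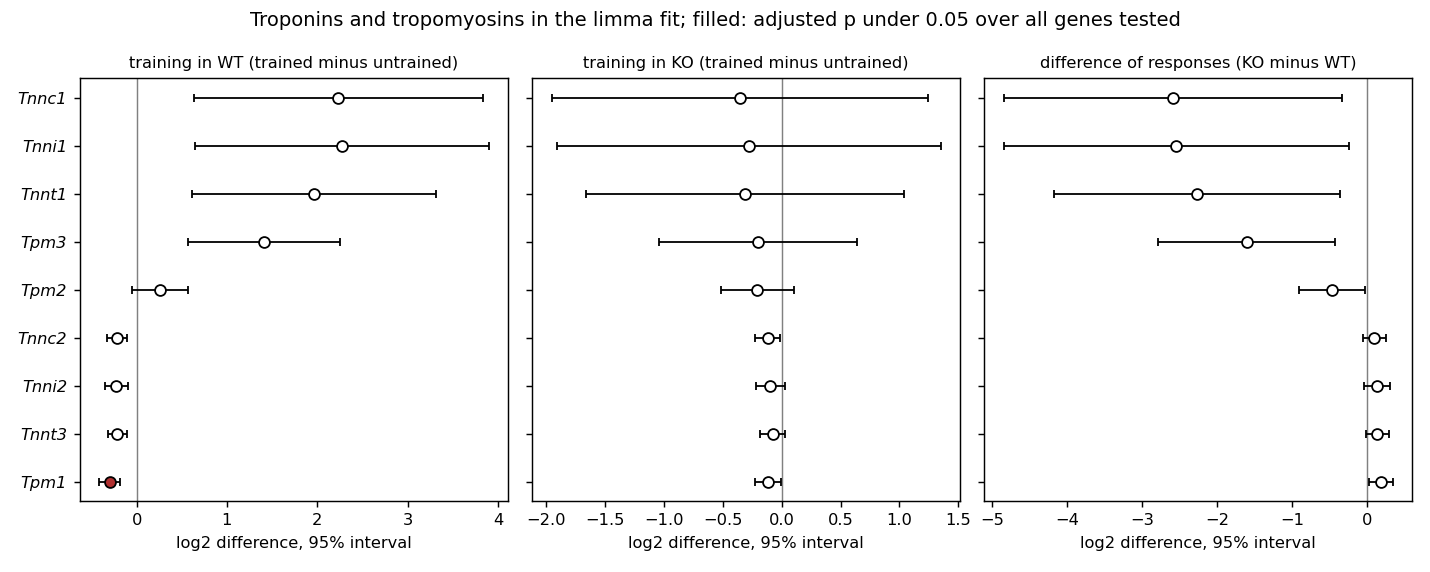
Log2 differences of the 9 genes with 95% intervals from the limma fit, for training in WT, training in KO and the difference of the responses (KO minus WT); the horizontal scales differ between panels and a filled point marks an adjusted p under 0.05. Tpm1 in WT is the 1 filled point, at -0.30.

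Between genotypes, untrained KO mice had slow gene means above and fast gene means below those of untrained WT mice, the latter with 0.01 for Tnnc2 and at or near 0 for the rest after quantile normalization. The log2 differences were 1.12 for Tnnc1, 1.01 for Tnni1, 1.02 for Tnnt1 and 0.69 for Tpm3, and -0.12 for Tnnc2 and Tnni2, -0.11 for Tnnt3 and -0.14 for Tpm1. None passed (0.0492% of all genes did; members' limma adjusted p 0.780 to 0.931), and 4 of 9 members, the fast ones, were at an unadjusted p under 0.05, beside 6.2% of all genes. Only Tnnt3 and Tpm1 did not overlap, both lower in KO, where 3.95% of all genes did not overlap and 2.37% were lower without overlap. Without both KO libraries numbered 3 the slow differences were 0.64 for Tnnc1, 0.51 for Tnni1, 0.65 for Tnnt1 and 0.42 for Tpm3.

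In trained mice the slow genes had lower means in KO than in WT, by log2 differences of -1.47 for Tnnc1, -1.54 for Tnni1, -1.26 for Tnnt1 and -0.92 for Tpm3, while the fast genes differed by -0.02 to 0.04, with the sign of Tnnc2 turning under median-ratio scaling (0.03). None of the 9 passed (limma adjusted p 0.281 to 0.975; 0.0885% of all genes did), and 2 of 9, Tpm2 and Tpm3, were at an unadjusted p under 0.05, beside 13.9% of all genes. KO trained library 3 lay within the WT trained range for all 4 slow genes, and the other 3 KO trained libraries lay below that range. Without it and its untrained namesake the differences were -2.01, -2.10, -1.76 and -1.28, with limma adjusted p of 0.245, 0.232, 0.228 and 0.0826. Tpm2 was the 1 member whose groups did not overlap, at 1297 to 1955 RPKM in KO trained and 2048 to 2617 in WT trained libraries (-0.38, SE 0.15, limma adjusted p = 0.281), where 8.48% of all genes did not overlap and 5.86% were lower without overlap. These comparisons share groups with each other: WT trained and KO untrained mice each enter more than 1 of them.

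Within a class the genes kept close proportions across the 16 libraries. The coefficient of variation was 1.93% for Tnnc2 over Tnni2, 2.34% for Tnnt3 over Tnni2, 2.48% for Tnnt3 over Tnnc2 and 3.18% for Tpm1 over Tnnt3. Per length, Tnnt3 stood at 1.46 to 1.61 times Tnni2 and Tnnc2 at 0.915 to 0.990 times Tnni2. Among the slow genes it was 8.13% for Tnnc1 over Tnni1 and 17.5% for Tnnt1 over Tnni1, but 45.9% for Tpm3 over Tnni1, which was 2.02 ± 0.976 (SD, n = 4) in WT untrained and 1.003 ± 0.0836 in WT trained mice. Tpm3 thus varied less than the slow troponins. Tpm2 over Tpm1 was 0.295 ± 0.0567 in untrained and 0.431 ± 0.0413 in trained WT mice, and 0.346 ± 0.0620 in untrained and 0.327 ± 0.0704 in trained KO mice.

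As a description over the 16 libraries, with no test, the genes outside the set whose log2 levels were most like those of the slow members were the same 3 for each: Myh7, the slow myosin heavy chain, Atp2a2, the slow and cardiac calcium pump, and Myl2, a slow and cardiac myosin light chain. Pearson's r with Myh7 was 0.99 for Tnnc1 and Tnnt1, 0.98 for Tnni1 and 0.96 for Tpm3. Leaving out the 2 libraries farthest from the median gave 0.99, 0.99, 0.99 and 0.95, and Spearman's rho over all 16 was 0.97 to 0.99. The library with the least Myh7, WT untrained 2 at 3.30 RPKM, also had the least of each of the 4 slow genes, and the points share their library and dissection. Myh7 itself was at 12.3 ± 9.69 RPKM in untrained and 51.3 ± 11.9 in trained WT mice, and 31.7 ± 22.6 in untrained and 27.8 ± 27.6 in trained KO mice (SD, n = 4). With log2 of Myh7 in the fit, the WT training difference was 0.00016 for Tnnc1, -0.0080 for Tnni1, 0.06 for Tnnt1 and 0.25 for Tpm3, and -0.28 for Tpm1, which then did not pass (limma adjusted p = 0.508). Myh7 is itself a slow gene with a WT training difference of 2.44 (limma adjusted p = 0.228). Such a fit therefore takes out by construction what the slow genes share with it, and it shows no cause. In that fit 0 of all 10171 tested genes passed in WT training.

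**Figure D5:**
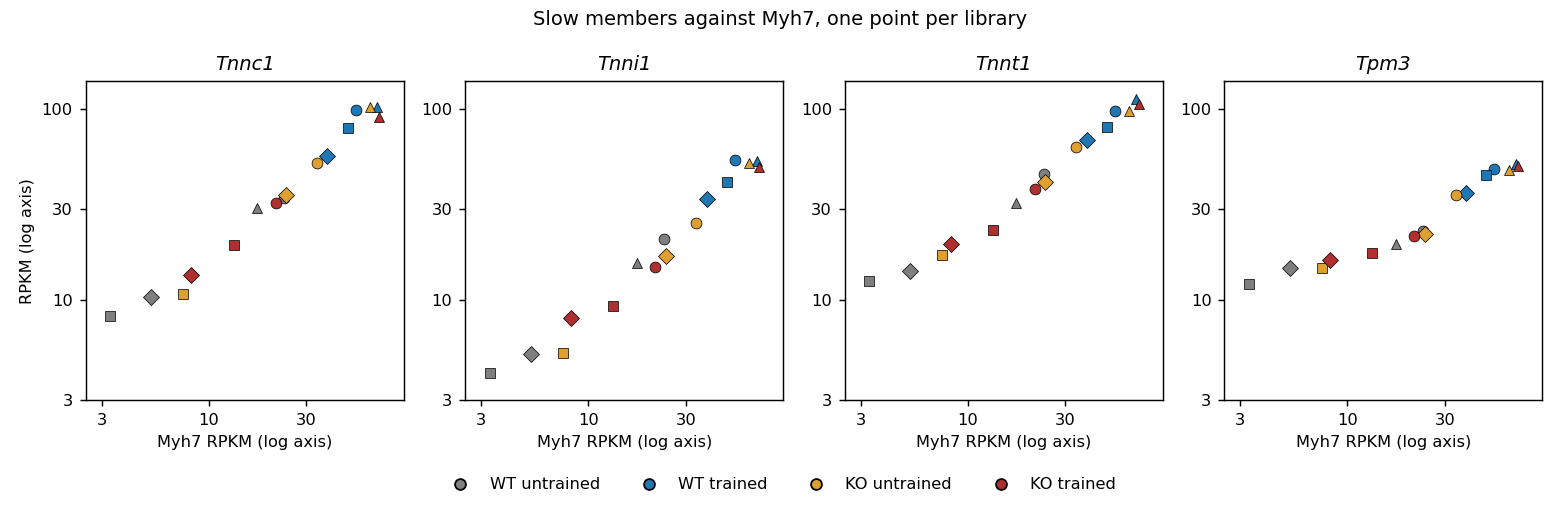
Levels of the 4 slow genes against Myh7, both in RPKM on log axes, 1 point per library coloured by group and shaped by replicate number as in the plots of single genes. Libraries of all 4 groups lie along 1 line in each panel, with the WT trained libraries and both KO libraries numbered 3 at its upper end.

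For the fast troponins the 3 most similar genes were Ckm, the muscle creatine kinase, Park7 and Adipor1, with r of 0.94 to 0.98. Tpm1 was most like Pygm, muscle glycogen phosphorylase (r = 0.92), Ckm (0.92) and Park7 (0.91). It ran most opposite to 3110057O12Rik (-0.92), Tmem65 (-0.91) and Hccs (-0.91), and Tnnt3 to 9930021J03Rik (-0.90), 3110057O12Rik (-0.89) and Tmem65 (-0.88). Tnnt1 ran most opposite to Atp8a1 (-0.81), Nek9 (-0.78) and Atmin (-0.77). Tpm2 was most like Ctsb (0.93), Zmynd8 (0.92) and Add1 (0.91), none of which was among the genes most like another member. Without the 2 libraries farthest from the Tpm2 median, KO trained 2 and WT trained 1, r was 0.85, 0.84 and 0.79. Spearman's rho over all 16 libraries was 0.79, 0.87 and 0.87. The genes named here are the extremes over all tested genes and carry no test.

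Other fibre-type genes lay on the same sides. All 6 of the slow reference genes (Myh7, Myl2, Myl3, Atp2a2, Casq2 and Myoz2) were above 0 in the WT training contrast, with a median of 0.84, and 8 of 9 fast reference genes were below 0, with a median of -0.26; none of either list passed. The exception was Myh1, the fast type IIx myosin, at 474 ± 138 RPKM in WT untrained and 773 ± 48.1 in WT trained mice (limma adjusted p = 0.0949). Myh2, the fast oxidative type IIa myosin, rose by 0.72 in WT (adjusted p = 0.0365), and Myh4, the type IIb myosin, had a difference of -0.26 (adjusted p = 0.131). Tendon markers lay on the side of the slow genes: of 10 markers 9 were tested, of which 8 were above 0 in WT training, with a median of 0.75, and all 9 below 0 in KO training, with a median of -0.30, and none passed. Their summed level was 116.6 to 147 RPKM in WT untrained and 194 to 249 in WT trained libraries, 139 to 233 in KO untrained and 92.8 to 210 in KO trained ones, with library 3 highest in both KO groups. None of the 10 was at 0 in every library, and Mkx was under the filter. This pattern was not particular to tendon, and 64.9% of all tested genes were below 0 in KO training. Of fibroblast markers 5 of 6 were above 0 in WT training and all 6 below 0 in KO training. All 4 macrophage markers tested were above 0 in WT and below 0 in KO training. Smooth muscle markers (4 of 7 above 0) and endothelial ones (3 of 5) were divided in WT training. The 2 erythroid markers tested were above 0 in both. The part of these markers in the slow gene differences was not tested.

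Of the rest of the thin filament and its partners, 21 genes were listed and all were tested, and none passed in any of the 5 contrasts. In WT training 13 were above 0 and 8 below, with a median of 0.03; in KO training 5 were above and 16 below, with a median of -0.10; for the difference of the responses 6 were above and 15 below, with a median of -0.15. Mybpc1, the slow myosin-binding protein C, was at 276 ± 28.4 RPKM in WT untrained and 431 ± 50.6 in WT trained mice (SD, n = 4; log2 difference 0.64, limma adjusted p = 0.0929), and at 304 ± 74.5 and 277 ± 59.5 in KO mice. Mybpc2, the fast form, was at 1553 ± 111 and 1251 ± 124 RPKM in WT mice (-0.31, adjusted p = 0.101). Lmod2, a leiomodin that lengthens thin filaments, had a WT difference of 0.46 (adjusted p = 0.155), and Tmod4, the tropomodulin that caps them in skeletal muscle, one of -0.24 (adjusted p = 0.116). Tnnt2 was at 2.26 ± 0.307 RPKM in WT untrained and 1.54 ± 0.386 in WT trained mice (-0.54, adjusted p = 0.201), so its WT difference was opposite in sign to that of the slow troponins.

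On the genome the troponin I and T genes lie near other troponin genes. Tnnt1, at a median of 43.6 RPKM, lies 2333 bases from Tnni3, the cardiac troponin I, which had a median of 0.0740 RPKM. Tnni1 lies 25345 bases from Tnnt2, with only Lad1 between them in the table. Tnni2 and Tnnt3 flank Lsp1, which had a median of 13.3 RPKM.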

How the data were processed

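RNA from 16 gastrocnemius muscles was sequenced from stranded mRNA libraries, per the labels' protocols. The deposited values are RPKM from trimmed reads, made by the authors, per the file headers. The submitters' processing notes name build mm10. Which aligner, counting program and annotation were used, and whether strand was, is not given in the sources used here. Within a gene the RPKM values step by the worth of 1 read, and all 17402 genes above 0 gave whole reads within 0.01 read, which set the library totals. The members and lists were chosen with earlier results of these data known. Genes that reached 1 RPKM in 4 libraries or more entered 1 limma fit (3.58.1, R 4.3.3, trend and robust moderation) of log2(RPKM + 0.1) with 1 mean per group and 5 contrasts. P-values are two-sided and adjusted by Benjamini-Hochberg over all tested genes within a contrast, with a threshold of 0.05. Ratios of slow to fast RPKM within a library were compared by exact permutation of the mean log2 ratio, 70 splits for 2 groups and 4900 for the difference of responses, adjusted over 20 tests. Named genes are the 9 members, up to 4 genes of the thin filament and cardiac lists with the smallest p, 4 myosin heavy chains, and for each member the 3 genes with the highest Pearson r, plus the lowest for Tpm1, Tnnt1 and Tnnt3. Casq2 and the other reference genes are named as members of their lists. Gene positions are the file's; overlaps were taken from GENCODE M21. The fit was repeated under 28 other settings, 16 of them without 1 library. It was also run on simulated reads that gave all genes the same relative spread beyond counting error. The spread of the slow genes, with a coefficient of variation of up to 95.6% (Tnni1 in KO trained), was not simulated. That run therefore does not show how well differences of the slow genes are found. Python 3.11.15 with SciPy 1.17.1 was used for the ratios.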

Additional observations from a re-analysis of the deposited data

Results flagged for a closer look

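Of 52 groups of 4 values checked, for the members and their ratios, 7 had a highest or lowest library farther from the next, relative to the group's range, than the 95% critical value of Dixon's test for 4 values; chance gives about 1 in 20. In the KO trained group, library 3 was the one apart each time: highest for Tnni1 (49.5 RPKM) and Tpm3 (50.4 RPKM), highest for Tnni1 over Tnni2 (0.514%) and Tpm3 over Tpm1 (1.04%), and lowest for Tpm1 (4844 RPKM). In the WT untrained group, library 3 was the highest for Tpm1 (6784 RPKM). In the WT trained group, library 1 was the highest for Tpm2 (2617 RPKM). The 5 flags of the KO trained group come from the same library and are not independent of each other.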

How the results depend on the processing

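Of the 5 contrasts, the count of members that passed moved only in WT training, where it was 1, beside 19 of all genes. The 4 fast genes passed under median-ratio scaling (155 of all genes) and with array weights (329), and Tpm1 and Tpm3, 2 members, without both KO libraries numbered 3, chosen after seeing the data (84). The count was 0 under quantile normalization (155), without a filter (3) and with Myh7 as a covariate (0). Under quantile normalization Tpm1 could not pass, since its rank was 12 in every library. Leaving out 1 library gave 0 to 4 members beside 0 to 272 genes, both highest without WT trained library 1. That library had the lowest array weight, 0.309 where the others had 0.529 to 1.86, and the highest median-ratio factor (1.09). In the other 4 contrasts 0 members passed in every setting run, beside 0 to 106 genes in KO training (97 with array weights, 106 without WT trained library 1), 0 to 4 for the difference of responses, 3 to 6 for KO against WT untrained and 2 to 24 trained.

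The labels do not say that the numbers in the sample titles pair the mice, and over 24 pairs of the same number deviations from group means correlated at -0.182 to 0.442 (median 0.0178). Over 72 pairs of different numbers the range was -0.390 to 0.212 (median -0.0084). KO untrained and trained libraries of the same number correlated at 0.149, 0.191, 0.442 and 0.0523, of which 3 are over 0.1. Among KO trained libraries, KO untrained libraries 2, 3 and 4 correlated best with the one of the same number. KO untrained library 1 correlated best with KO trained library 2 (0.207). With the replicate number as a block 1 member passed in WT training, Tpm3 (adjusted p = 0.0432) in place of Tpm1 (adjusted p = 0.0685), beside 16 of all genes, and 0 in the other contrasts. For the ratios, sign flips within the number gave an adjusted p of 0.167 in WT training, where 4 pairs cannot give an unadjusted p below 0.125.

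Without both KO libraries numbered 3 the ratio differences for C, I, T and tropomyosin were 2.46, 2.51, 2.18 and 1.71 in WT training, -2.79, -2.81, -2.59 and -1.93 for the difference of responses, and -2.002, -2.14, -1.82 and -1.36 for KO against WT in trained mice, each with an adjusted p of 0.0476. With limma on the 4 log2 ratios, WT training (2.46, 2.51, 2.18 and 1.71) and the difference of responses for C, I and T (-2.70, -2.69 and -2.41; adjusted p 0.0322 to 0.0339) passed, but moderation over 4 correlated ratios gave these tests 30.6 degrees of freedom where 16 libraries in 4 groups leave 12, so these calls support nothing.

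Leaving out 1 library gave ratio ranges, for C, I, T and tropomyosin, of 2.10 to 2.81, 2.13 to 2.93, 1.90 to 2.53 and 1.57 to 1.87 in WT training; -0.82 to 0.22, -0.78 to 0.29, -0.77 to 0.13 and -0.49 to 0.19 in KO training; -3.28 to -2.24, -3.29 to -2.22, -2.95 to -2.05 and -2.20 to -1.53 for the difference of responses; and -2.002 to -1.06, -2.14 to -1.23, -1.82 to -0.97 and -1.36 to -0.76 for KO against WT in trained mice. Those in WT training, the difference of responses and KO against WT in trained mice passed only without KO trained library 3 (adjusted p = 0.0476). No KO library enters the WT values, so for them only the adjustment over 20 tests moved. For the other contrasts, KO trained library 3 had the highest ratio of its group in every pair, so leaving it out lowers the KO trained ratios by construction. For single genes, signs turned when 1 library was left out in KO training, where Tnnc1 ran from -0.96 to 0.12, Tnni1 from -0.88 to 0.22, Tnnt1 from -0.82 to 0.051 and Tpm3 from -0.56 to 0.068. They also turned in KO against WT for Tpm2 untrained (-0.019 to 0.17) and, trained, for Tnnc2 (-0.050 to 0.0097), Tnni2 (-0.037 to 0.050) and Tnnt3 (-0.0064 to 0.061).

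Other reversals were of differences that did not pass; their cause was not tested. Quantile normalization gave Tnnc2 0.014 in WT training and in KO against WT untrained and -0.058 for the difference of responses, and Tnnt3 0.023 in KO training. Array weights gave, in KO training, Tnnc1 0.17, Tnni1 0.24, Tnnt1 0.099 and Tpm3 0.038. With Myh7 in the fit Tnni1 was -0.0080 in WT training, 0.0093 in KO training and 0.017 for the difference of responses, and in KO against WT untrained Tnnc1 was -0.18, Tnni1 -0.32 and Tnnt1 -0.088. Without both KO libraries numbered 3, Tpm2 was -0.019 in KO against WT untrained, and median-ratio scaling gave Tnnc2 0.031 in KO against WT trained. With 4 mice a group the exact permutation p cannot go below 0.0286.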
